A study of Rattus norvegicus with 8 samples.

Results

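Histone genes encode the proteins that package DNA into nucleosomes, and 39 of the 24059 genes in the table were followed here. A row was taken when its symbol had the form of a histone gene name (H1f, H2ac, H2bc, H2ax, H2az, H3c, H3f, H4f or the older Hist1h to Hist4h names) and its estimated counts summed to at least 80 over the 8 libraries. The pattern matched 49 rows, of which 10 lay below that minimum. The 39 members comprised 28 replication-dependent genes and 11 rows of variant histones, made up of 8 genes and 3 pseudogenes. Just above the minimum stood a row named Hist1h4m (ENSRNOG00000070706.1) with a summed count of 99.4, and just below it H2ac1 with 79.8.

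The germ cells were GFP-positive cells of testes of transgenic Sprague-Dawley rats carrying GCS-EGFP, a germ cell reporter shared by both groups, and their RNA was sequenced from polyA-enriched libraries. Doxorubicin rats 2, 3, 6 and 8 were dosed at 5 mg/kg on postnatal day 6 and control rats 1, 4, 5 and 9 received vehicle on that day; both groups were sampled after 24 h. The anthracycline doxorubicin traps topoisomerase II on DNA. Each library came from 1 rat, the labels also give "SSC" as a cell line, and the promoter that drives the reporter is not given in the sources used here.

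Replication-dependent histone genes lie in clusters, are transcribed in S phase to supply newly made DNA, and give messenger RNAs that end in a stem-loop bound by the protein Slbp rather than in a polyA tail. Variant histone genes mostly stand alone, are transcribed outside S phase as well, and mostly give polyadenylated messengers; H2ax is known to give both a polyadenylated messenger and one that ends in a stem-loop. A polyA-enriched library holds messengers that carry a tail and any RNA that escapes the selection. In bulk samples such as these, fewer cells of a type and less RNA per cell cannot be told apart.

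Total estimated counts were 41665749 to 58870999 in the doxorubicin libraries and 41253789 to 57700876 in the control libraries. The 8 pan-germ cell markers summed to 1738 to 1780 CPM (counts-per-million, TMM-scaled) after doxorubicin and 1672 to 1797 CPM in controls, and the 7 Sertoli cell markers to 47.7 to 56.7 and 45.9 to 54.7 CPM. Red blood cell transcripts were scarce, and the sums of 3 measured genes (Hbb, Hba-a1 and Alas2) did not overlap. They were 1.27 to 2.85 CPM after doxorubicin and 3.29 to 4.80 CPM in controls. DESeq2 called 2 of the 3 lower, Hbb (adjusted p = 0.0284) and Hba-a1 (adjusted p = 0.0439), against 1.02% of all genes called in either direction. edgeR called 0 of the 3, against 0.112%. The 3 measured macrophage and leukocyte markers (Csf1r, Cd68 and Ptprc) lay the other way, also without overlap in their sums, at 2.06 to 2.56 CPM after doxorubicin and 1.74 to 1.99 CPM in controls, with 0 called by either tool. Single genes without overlap made up 1.95% of all genes in the lower and 2.77% in the higher direction. Sums of the endothelial, Leydig, and peritubular and stromal markers overlapped. They were 82.5 to 92.3, 4.22 to 9.56 and 37.9 to 50.4 CPM after doxorubicin, against 71.7 to 83.7, 5.83 to 8.07 and 41.2 to 49.4 CPM in controls. The 5 peritubular and stromal genes went both ways, 1 positive (Myh11, log2 fold change 0.79 ± 0.27, SE) and 4 negative. Of the 5, 2 were lower without overlap, Pdgfra and Col1a1, against 1.95% of all genes. edgeR and DESeq2 called 0 of the 5, against 0.112% and 1.02%. The part of any of these cell types in the results was not tested. Over all 16976 genes tested, edgeR's quasi-likelihood test called 19 genes at a Benjamini-Hochberg threshold of 0.05, 18 higher and 1 lower after doxorubicin. That count moved with single libraries: it was 62 without doxorubicin rat 2, 11 without doxorubicin rat 6, 1 without doxorubicin rat 8, and 11, 2, 1 and 3 without control rats 1, 4, 5 and 9.

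The promoters of both classes can be read for 19 members whose identifier and symbol named the same gene in RefSeq (assembly GRCr8), 13 replication-dependent and 6 variant. In windows of 250 bases before to 50 bases after the gene start, 4 sequences were searched on both strands: CCAAT, the box bound by NF-Y; TATAAA, the TATA box; ATTTGCAT, the octamer associated with H2B genes; and AAACACA, an element known from H1 promoters. None of the 4 contains another, and a match is a match of letters only. CCAAT was present in 13 of 13 replication-dependent windows and 4 of 6 variant windows, against 37.5% of all 33469 RefSeq windows. TATAAA was present in 9 of 13 and 2 of 6, against 14.2% of all windows. ATTTGCAT was present in 3 of 13 and 0 of 6, against 1.78%, and AAACACA in 4 of 13 and 1 of 6, against 6.99%. The AAACACA matches fell mainly in the linker histones, in 3 of the 4 replication-dependent H1 windows. The 250 bases before the start are shown for 4 genes whose values are described further on, because they show the motifs in 2 clustered genes (H1f2, on the minus strand at chr17:41820454-41820703, and H4f3, on the minus strand at chr17:41980342-41980591) and in 2 stand-alone ones (H2ax, on the plus strand at chr8:53568468-53568717, and H1f0, on the plus strand at chr7:112473030-112473279). Capitals mark the motifs, on either strand.
H1f2: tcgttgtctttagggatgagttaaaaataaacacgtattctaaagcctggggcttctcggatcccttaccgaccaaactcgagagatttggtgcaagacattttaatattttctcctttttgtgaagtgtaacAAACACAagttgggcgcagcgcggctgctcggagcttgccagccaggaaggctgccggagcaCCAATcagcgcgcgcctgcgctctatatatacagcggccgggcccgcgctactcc
H4f3: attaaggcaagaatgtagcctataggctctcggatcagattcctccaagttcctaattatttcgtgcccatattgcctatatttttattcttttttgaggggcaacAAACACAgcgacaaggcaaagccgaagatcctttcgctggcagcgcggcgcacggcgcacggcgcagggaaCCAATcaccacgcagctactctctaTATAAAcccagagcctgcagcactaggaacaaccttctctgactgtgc
H2ax: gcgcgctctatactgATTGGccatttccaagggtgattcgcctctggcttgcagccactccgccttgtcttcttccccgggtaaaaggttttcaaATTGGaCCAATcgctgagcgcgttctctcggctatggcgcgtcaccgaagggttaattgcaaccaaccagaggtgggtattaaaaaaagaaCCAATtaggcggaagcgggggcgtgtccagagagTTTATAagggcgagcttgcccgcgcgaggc
H1f0: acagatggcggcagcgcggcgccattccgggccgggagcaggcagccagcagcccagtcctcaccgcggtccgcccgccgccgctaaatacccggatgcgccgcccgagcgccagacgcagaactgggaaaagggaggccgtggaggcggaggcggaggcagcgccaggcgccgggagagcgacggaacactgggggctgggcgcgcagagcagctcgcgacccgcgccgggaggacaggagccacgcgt
H4f3 held the H1-type element, the CCAAT box and the TATA box once each, in that order towards the start, and H1f2 held the first and second of these once each. H2ax held 4 matches to the CCAAT box and 1 to the TATA box. H1f0 held no match to any of the 4.

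The comparison of doxorubicin with vehicle asks whether histone transcripts changed within a day of exposure. None of the 39 histone rows passed the threshold in either direction. edgeR called 0 of 39, against 0.112% of all genes tested, and DESeq2 called 0 of 39, against 1.02%. At an unadjusted edgeR p below 0.05 there was 1 row of 39, H3f3a, lower after doxorubicin, against 6.76% of all genes in either direction and 2.56% in this one. In 0 of 39 rows were the 4 doxorubicin and 4 control libraries without overlap in CPM, against 4.72% of all genes. Log2 fold changes were positive in 18 and negative in 21 rows, and the 53.8% that were negative stood beside 52.2% of all genes tested. The plot of fold changes with their intervals shows all 39.

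**Figure D1:**
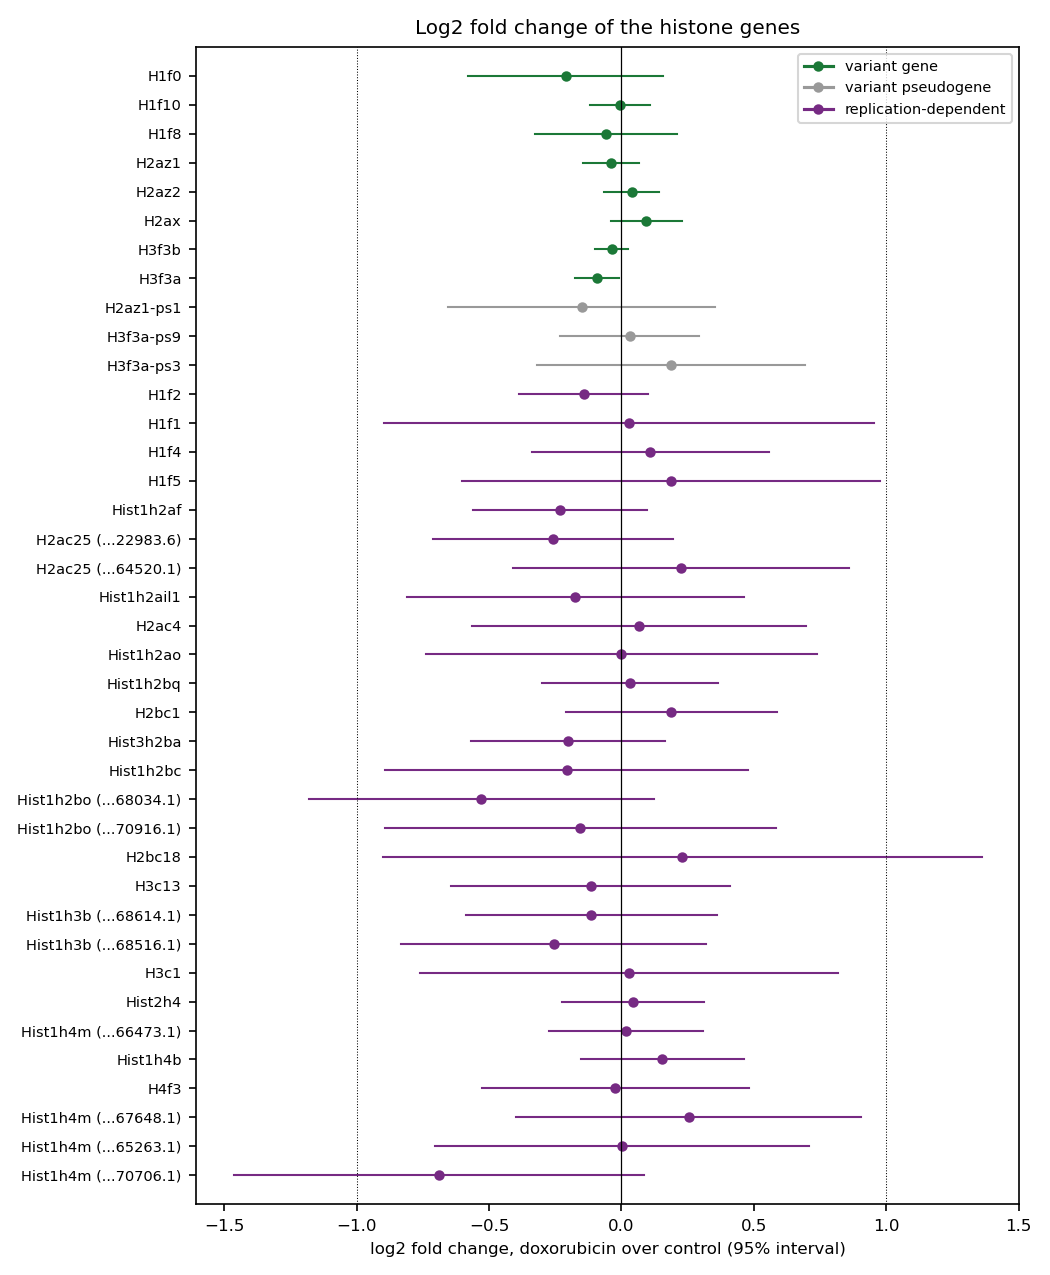
Log2 fold change of doxorubicin over control (horizontal axis) for the 39 histone rows, with 95% intervals from edgeR's quasi-likelihood fit; dotted lines mark 2-fold in each direction and the end of an Ensembl identifier is given where rows share a symbol. The variant genes at the top have short intervals close to 0, the replication-dependent rows below them long ones, and H3f3a is the only row whose interval ends short of 0, at -0.009.

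The intervals set how much change in the captured RNA these data could have missed. In the replication-dependent class that RNA carried a tail or escaped the polyA selection. Change in stem-loop messengers that were not captured is not bounded by these intervals. For the 8 variant genes every 95% interval lay within 1.5-fold in either direction. For the 28 replication-dependent rows 25 intervals lay within 2-fold and 9 within 1.5-fold. The 3 rows whose intervals reached past 2-fold were H2bc18, Hist1h2bo (ENSRNOG00000068034.1) and Hist1h4m (ENSRNOG00000070706.1), which averaged 14.1, 23.4 and 12.4 counts per library. A p above the threshold in such rows does not show that the groups were alike.

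Histone H3.3 is the replacement form of H3 that is laid down outside replication, and the same protein is encoded by H3f3a and H3f3b. H3f3a (ENSRNOG00000006532.6) measured 343, 348, 342 and 321 CPM in doxorubicin rats 2, 3, 6 and 8, against 374, 359, 368 and 342 CPM in control rats 1, 4, 5 and 9. Only control rat 9 fell into the range of the doxorubicin rats. The log2 fold change was -0.09 ± 0.04 (SE; 95% interval -0.17 to -0.01), with an unadjusted p of 0.0329 and an adjusted p of 0.665 by edgeR and an adjusted p of 0.703 by DESeq2.

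H3f3b (ENSRNOG00000003220.8) measured 398, 389.5, 403 and 401 CPM in doxorubicin rats 2, 3, 6 and 8, against 399, 409, 412 and 413 CPM in control rats 1, 4, 5 and 9. Here control rat 1 lay within the doxorubicin range and the other controls above it. Its log2 fold change was -0.04 ± 0.03 (SE; 95% interval -0.10 to 0.03; edgeR adjusted p = 0.903). The control rat that lay within the doxorubicin range was a different one in each of the 2 genes. Their sum, formed after the values of each had been seen, did not overlap between the groups. It was 742, 738, 745 and 722 CPM in doxorubicin rats 2, 3, 6 and 8, against 773, 768, 781 and 754 CPM in control rats 1, 4, 5 and 9. The mean was 736 ± 10.3 CPM after doxorubicin and 769 ± 11.1 CPM in controls (SD, n = 4 each), a ratio of 0.958. The groups also stayed apart with scaling by library size only, where the ratio was 0.952. The ratio was 0.960 within rats 1 to 4 and 0.956 within rats 5 to 9. Groups without overlap give a ratio below 1 in any split of the same libraries, so these ratios are not a further check. No p is given for this sum, because its 2 genes were chosen with their values known, and groups without overlap were seen in 1.95% of all genes in this direction. H3f3a made up 45.96 ± 1.15% of the sum after doxorubicin and 46.9 ± 1.27% in controls, with overlap.

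**Figure D2:**
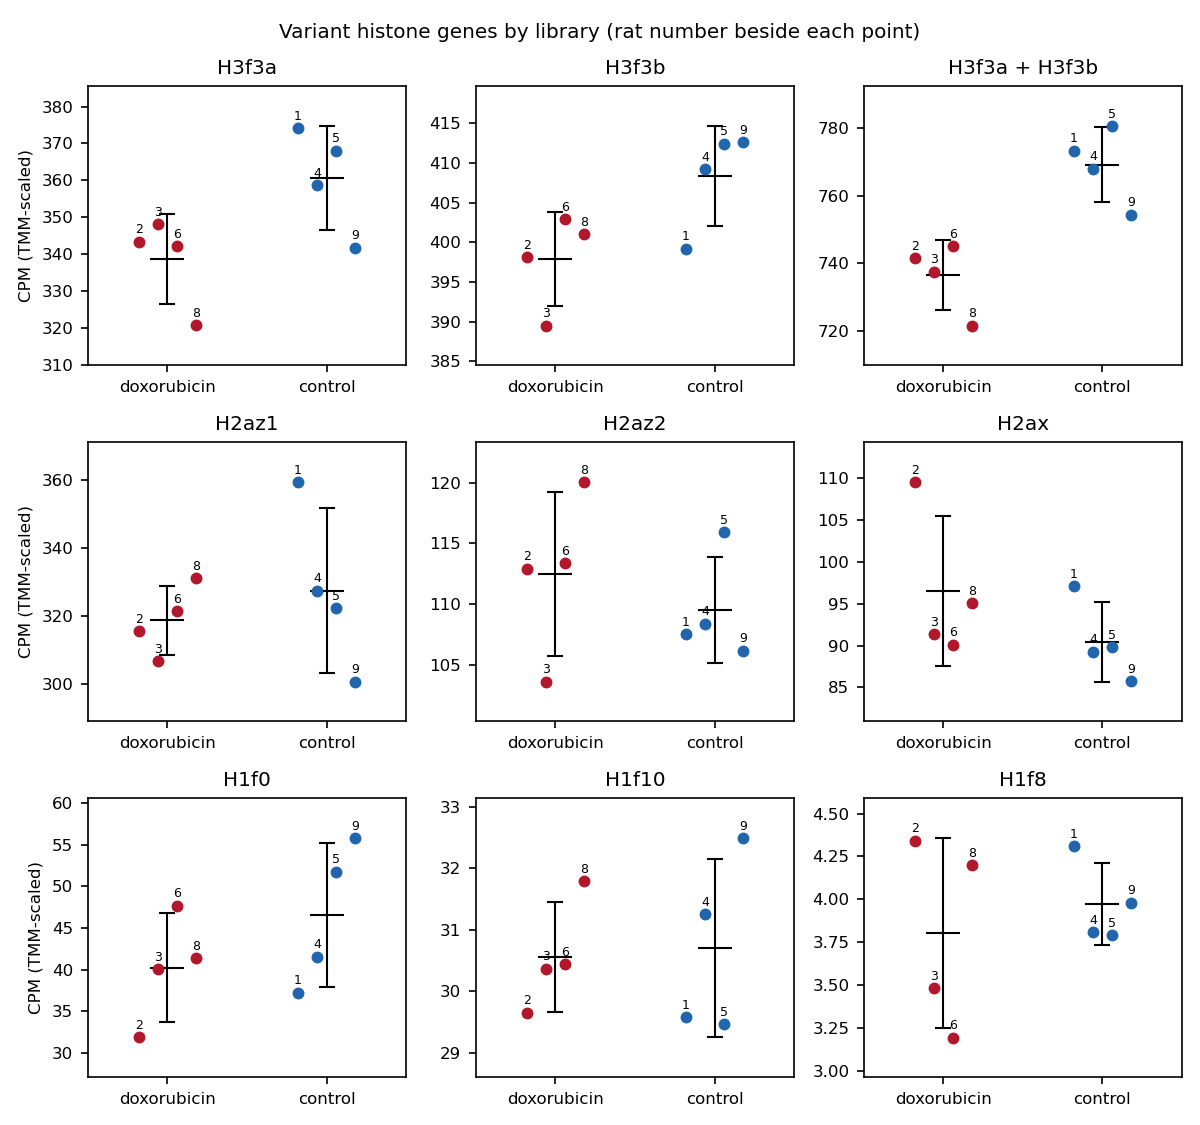
TMM-scaled CPM (vertical axes, which do not start at 0) of the 8 variant histone genes and of the sum of H3f3a and H3f3b, in each doxorubicin library (red) and control library (blue), with the rat number beside each point and bars for the mean and SD. The groups overlap in each gene, and the H3f3a plus H3f3b sum reaches 745 CPM in the highest doxorubicin library and 754 CPM in the lowest control library.

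H2ax encodes H2A.X, the H2A variant that is phosphorylated around DNA double-strand breaks, a change of the protein that RNA does not show. Its RNA (ENSRNOG00000010386.5) stood at 109.6, 91.4, 90.1 and 95.1 CPM in doxorubicin rats 2, 3, 6 and 8, against 97.1, 89.3, 89.8 and 85.7 CPM in control rats 1, 4, 5 and 9. Doxorubicin rat 2 was the highest of the 8 and the other 3 doxorubicin rats lay within the control range. The log2 fold change was 0.09 ± 0.06 (SE; 95% interval -0.04 to 0.23; edgeR adjusted p = 0.856) with all libraries and 0.03 without doxorubicin rat 2.

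H2A.Z, a variant found at nucleosomes next to gene starts, is encoded by H2az1 and H2az2. H2az1 (ENSRNOG00000010306.7) measured 316, 307, 321 and 331 CPM in doxorubicin rats 2, 3, 6 and 8, against 359, 327, 322 and 301 CPM in control rats 1, 4, 5 and 9. H2az2 (ENSRNOG00000052275.2) measured 113, 104, 113 and 120.1 CPM in the same doxorubicin rats, against 108, 108, 116 and 106 CPM in the same control rats. The controls of H2az1 spanned the whole doxorubicin range, and the doxorubicin rats of H2az2 spanned the whole control range. The log2 fold changes were -0.04 ± 0.05 for H2az1 and 0.04 ± 0.05 for H2az2 (SE; edgeR adjusted p = 0.954 and 0.955). H2az1 gave 73.9 ± 0.59% of the summed H2A.Z counts after doxorubicin and 74.9 ± 1.54% in controls.

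The 3 variant linker histones bind the DNA between nucleosomes. H1f0 encodes H1.0, a form known to accumulate in cells that leave the cell cycle, and among the variant genes it varied most from rat to rat. H1f0 (ENSRNOG00000063732.1) measured 31.8, 40.0, 47.7 and 41.4 CPM in doxorubicin rats 2, 3, 6 and 8, against 37.2, 41.5, 51.7 and 55.8 CPM in control rats 1, 4, 5 and 9. Its coefficient of variation was 16.2% among doxorubicin rats and 18.6% among controls, while counting error at its mean of 2233 counts per library is 2.12%. H1f10, with a similar mean of 1598 counts per library, had coefficients of 2.92% after doxorubicin and 4.72% in controls.

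The SE of the H1f0 fold change, 0.16, was accordingly the highest of the variant genes, above the 0.12 of H1f8 although H1f8 had only 204.5 counts per library. Its log2 fold change was -0.21 (95% interval -0.58 to 0.16; edgeR adjusted p = 0.904), and -0.11 without doxorubicin rat 2 or without control rat 9. H1f10 (ENSRNOG00000027722.2) measured 30.6 ± 0.89 CPM after doxorubicin and 30.7 ± 1.45 CPM in controls (SD, n = 4 each), with a log2 fold change of -0.01 ± 0.05 (SE). H1f8, the linker histone of oocytes, measured 3.80 ± 0.55 CPM after doxorubicin and 3.97 ± 0.24 CPM in controls, with a log2 fold change of -0.06 ± 0.12.

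**Figure D3:**
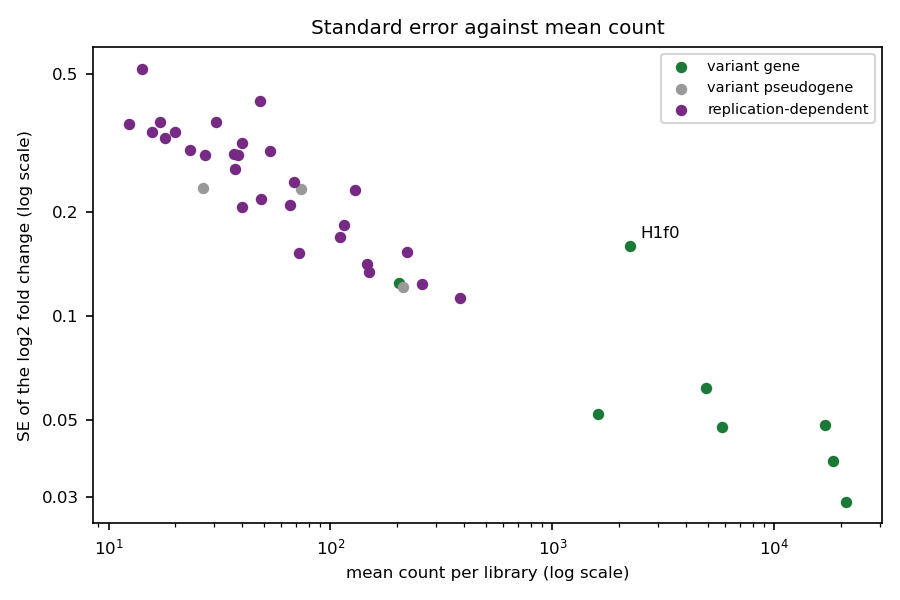
SE of the log2 fold change (vertical, log scale) against the mean count per library (horizontal, log scale) for the 39 histone rows. The SE falls as counts rise, and H1f0 lies above the other variant genes of similar count, at 0.16 against 0.05 for H1f10.

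The 3 pseudogene rows copy H2az1 or H3f3a in sequence and may share reads with them. H3f3a-ps9 had 4.13 ± 0.35 CPM after doxorubicin and 4.03 ± 0.52 CPM in controls, H2az1-ps1 had 1.32 ± 0.32 and 1.46 ± 0.42 CPM, and H3f3a-ps3 had 0.54 ± 0.06 and 0.48 ± 0.10 CPM. Their log2 fold changes were 0.03 ± 0.12, -0.15 ± 0.23 and 0.19 ± 0.23 in that order (SE). Over the 11 variant rows the median log2 fold change was -0.04, beside -0.0047 over all genes tested, and all 11 summed to 1345 ± 17.8 CPM after doxorubicin and 1384 ± 30.4 CPM in controls.

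In these polyA-enriched libraries the replication-dependent rows were measured at low counts, from 12.4 to 384 per library on average. Log2 fold changes were positive in 14 and negative in 14 of the 28 rows, with a median of 0.0011. edgeR called 0 of 28, against 0.112% of all genes, and DESeq2 called 0 of 28, against 1.02%. An unadjusted edgeR p below 0.05 was seen in 0 of the 28, against 6.76% of all genes in either direction. The smallest edgeR adjusted p was 0.793. Summed over the 28 rows they gave 37.4, 46.4, 48.5 and 38.5 CPM in doxorubicin rats 2, 3, 6 and 8, against 40.3, 46.3, 44.8 and 42.4 CPM in control rats 1, 4, 5 and 9. The doxorubicin rats held both the highest and the lowest sums, with means of 42.7 ± 5.58 CPM after doxorubicin and 43.4 ± 2.63 CPM in controls (SD, n = 4 each) and a ratio of 0.983. The ratio was 1.02 without doxorubicin rat 2 and 0.938 without doxorubicin rat 6.

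Names limit what single rows mean in this class. The 28 rows carry 22 distinct symbols, 10 rows share a symbol with another, and 4 are all named Hist1h4m. Further Hist1h4m rows, ENSRNOG00000064025.1 and ENSRNOG00000070513.1, lay below the count minimum with summed counts of 78 and 68.3 and are in no sum. In 24 of the 28 rows at least 1 library holds an estimated count that is not whole, and near-identical copies may have exchanged reads, so single rows are uncertain, while a sum does not depend on how reads were divided among the copies it holds. For 8 of the 39 members the deposited Entrez identifier belongs to another symbol in RefSeq, H3f3a and H3f3b among them with theirs exchanged. The symbols used here are those of the deposited table.

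Linker histones of the clusters were led by H1f2 (ENSRNOG00000067441.1), with 5.54, 7.11, 7.91 and 7.56 CPM in doxorubicin rats 2, 3, 6 and 8, against 7.32, 7.58, 8.21 and 7.89 CPM in control rats 1, 4, 5 and 9. Doxorubicin rat 2 was the lowest of the 8. The log2 fold change was -0.14 ± 0.11 (SE; 95% interval -0.39 to 0.10; edgeR adjusted p = 0.908). H1f1, H1f4 and H1f5 averaged 0.54 to 0.96 CPM per group with log2 fold changes of 0.03 ± 0.42, 0.11 ± 0.21 and 0.19 ± 0.36 (SE). The 4 rows together gave 9.43 ± 1.81 CPM after doxorubicin and 9.97 ± 0.72 CPM in controls.

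Of the 6 H2A rows, 2 had a positive and 4 a negative log2 fold change. Hist1h2af (ENSRNOG00000022146.2) measured 1.26, 1.41, 1.22 and 1.19 CPM in doxorubicin rats 2, 3, 6 and 8, against 1.30, 1.63, 1.403 and 1.65 CPM in control rats 1, 4, 5 and 9. Doxorubicin rat 3 reached into the control range and the other doxorubicin rats did not. Its log2 fold change was -0.23 ± 0.15 (SE; edgeR adjusted p = 0.854). The 2 rows named H2ac25 went opposite ways, with log2 fold changes of -0.26 ± 0.21 (ENSRNOG00000022983.6) and 0.22 ± 0.29 (ENSRNOG00000064520.1), and the Entrez identifier of the first belongs to another gene in RefSeq. The H2A rows summed to 4.74 ± 0.86 CPM after doxorubicin and 5.10 ± 0.56 CPM in controls.

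Among the 7 H2B rows, 3 positive and 4 negative, Hist1h2bq (ENSRNOG00000069578.1) was the most counted, with 4.81, 4.17, 4.72 and 3.51 CPM in doxorubicin rats 2, 3, 6 and 8, against 3.06, 4.78, 4.53 and 4.44 CPM in control rats 1, 4, 5 and 9. H2bc1 (ENSRNOG00000069905.1), the testis-specific H2B, had 1.99, 2.33, 3.03 and 2.08 CPM in the same doxorubicin rats, against 1.81, 2.32, 2.50 and 1.56 CPM in the same control rats. Both overlapped between the groups, with log2 fold changes of 0.03 ± 0.15 for Hist1h2bq and 0.19 ± 0.18 for H2bc1 (SE; edgeR adjusted p = 0.991 and 0.941). Hist3h2ba measured 1.97 ± 0.47 CPM after doxorubicin and 2.26 ± 0.12 CPM in controls, a log2 fold change of -0.20 ± 0.17. The lowest value of the family was -0.53 ± 0.30 in Hist1h2bo (ENSRNOG00000068034.1; edgeR adjusted p = 0.811), on 13, 19, 24 and 20 counts in doxorubicin rats 2, 3, 6 and 8, against 24, 36, 33 and 18 counts in control rats 1, 4, 5 and 9. The H2B rows summed to 10.4 ± 1.52 CPM after doxorubicin and 10.5 ± 1.16 CPM in controls.

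The 4 H3 rows were the least counted family, with 3.19 ± 0.92 CPM in sum after doxorubicin and 3.45 ± 0.51 CPM in controls, and log2 fold changes positive in 1 and negative in 3. H3c13 (ENSRNOG00000065054.1) had 1.09, 0.956, 2.15 and 1.01 CPM in doxorubicin rats 2, 3, 6 and 8, against 1.23, 1.52, 1.35 and 1.46 CPM in control rats 1, 4, 5 and 9. Doxorubicin rat 6 was the highest of the 8 and the other doxorubicin rats lay below every control. The log2 fold change was -0.12 ± 0.24 (SE) with all libraries and -0.44 without rat 6, where the edgeR adjusted p was 0.568. The 2 rows named Hist1h3b had log2 fold changes of -0.11 ± 0.22 and -0.26 ± 0.26.

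The H4 family held 7 rows, 5 positive and 2 negative, and no counting error was worked out for its sum. The sums were 14.3, 16.6, 15.0 and 13.9 CPM in doxorubicin rats 2, 3, 6 and 8, against 14.4, 14.3, 14.6 and 14.3 CPM in control rats 1, 4, 5 and 9. The doxorubicin libraries spread to both sides of the controls, with means of 14.95 ± 1.20 CPM after doxorubicin and 14.4 ± 0.15 CPM in controls (SD, n = 4 each). Its most counted row, Hist2h4 (ENSRNOG00000054017.2), measured 5.92, 5.20, 4.17 and 4.67 CPM in doxorubicin rats 2, 3, 6 and 8, against 5.38, 4.98, 4.59 and 4.41 CPM in control rats 1, 4, 5 and 9, a log2 fold change of 0.04 ± 0.12 (SE; edgeR adjusted p = 0.980).

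H4f3 (ENSRNOG00000048264.3) showed the widest spread of the better counted H4 rows, with 1.31, 2.85, 3.31 and 2.50 CPM in doxorubicin rats 2, 3, 6 and 8, against 2.37, 2.94, 2.35 and 2.40 CPM in control rats 1, 4, 5 and 9. Doxorubicin rat 2 was the lowest and doxorubicin rat 6 the highest of the 8, and the log2 fold change was -0.02 ± 0.23 (SE). Hist1h4b had 2.93 ± 0.29 CPM after doxorubicin and 2.65 ± 0.41 CPM in controls, with a log2 fold change of 0.15 ± 0.14. The 4 members named Hist1h4m ranged in log2 fold change from -0.69 ± 0.36 (ENSRNOG00000070706.1) to 0.25 ± 0.30 (ENSRNOG00000067648.1), the lowest and the highest of all 28 rows under a single name. The first of these rested on 10, 13, 7 and 8 counts in doxorubicin rats 2, 3, 6 and 8, against 10, 25, 16 and 10 counts in control rats 1, 4, 5 and 9 (edgeR adjusted p = 0.793).

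**Figure D4:**
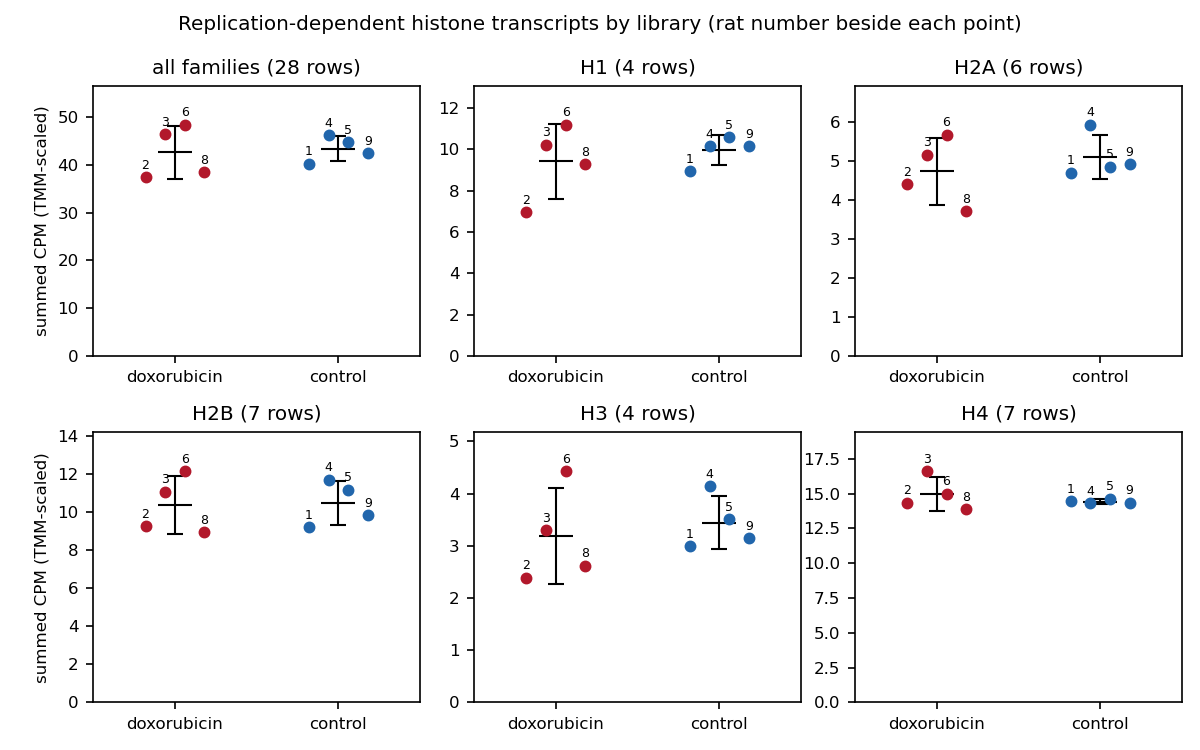
Summed TMM-scaled CPM (vertical axes from 0) of the 28 replication-dependent rows and of each family in the doxorubicin libraries (red) and control libraries (blue), with the rat number beside each point and bars for the mean and SD. The groups overlap in every panel; doxorubicin rats 2 and 8 lie low and rats 3 and 6 high in most families, and the 4 control H4 sums lie between 14.3 and 14.6 CPM.

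The machinery that makes and handles histone messengers was described from 3 lists. Of 25 measured genes for the processing of histone messengers, 11 were positive and 14 negative with a median log2 fold change of -0.01. edgeR and DESeq2 called 0, against 0.112% and 1.02% of all genes. An unadjusted edgeR p below 0.05 was seen in 0 of the 25, against 6.76% of all genes in either direction. Slbp, which binds the stem-loop, had 182.6 ± 6.14 CPM after doxorubicin and 195.3 ± 16.8 CPM in controls, a log2 fold change of -0.10 ± 0.05 (SE; edgeR adjusted p = 0.810). Lsm11, a subunit of the U7 particle that cuts the messenger end, had a log2 fold change of -0.10 ± 0.06, and Tut7, an enzyme that adds uridines when histone messengers are degraded, one of 0.10 ± 0.05.

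Of 14 measured genes for histone gene transcription, 5 were positive and 9 negative with a median of -0.02. edgeR and DESeq2 called 0, against 0.112% and 1.02% of all genes, and 1 of the 14 was lower with an unadjusted p below 0.05, against 2.56% of all genes. This was Ccne2, the cyclin E2 partner of Cdk2, whose activity switches on histone transcription at S phase. Ccne2 stood at 34.8, 38.4, 38.0 and 36.6 CPM in doxorubicin rats 2, 3, 6 and 8, against 42.8, 45.4, 39.2 and 39.6 CPM in control rats 1, 4, 5 and 9. The groups did not overlap, which 1.95% of all genes showed in this direction, and the log2 fold change was -0.18 ± 0.06 (SE; edgeR adjusted p = 0.451). Casp8ap2, a component of the histone locus body, had a log2 fold change of -0.08 ± 0.05, and that of Ccne1 was -0.22 ± 0.15.

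The histone chaperone list holds proteins that carry histones, and also other factors, such as a subunit of an exchange complex. Of its 33 measured genes, 7 were positive and 26 negative with a median of -0.03, and 78.8% negative stood beside 52.2% of all genes. edgeR and DESeq2 called 0, against 0.112% and 1.02% of all genes, and 2 of the 33 were lower with an unadjusted p below 0.05, against 2.56% of all genes. The summed CPM of the 33 did not overlap between the groups, at 7801 to 8084 CPM after doxorubicin and 8098 to 8112 CPM in controls. Taken singly, 0 of the 33 genes were without overlap, against 1.95% of all genes in this direction. Sums of the processing list (3503 to 3599 against 3514 to 3638 CPM) and of the transcription list (1063 to 1117 against 1086 to 1135 CPM) overlapped. The chaperone sum was not followed under other scalings. Dek measured 236 ± 5.78 CPM after doxorubicin and 252 ± 9.68 CPM in controls, a log2 fold change of -0.09 ± 0.04 (SE; edgeR adjusted p = 0.634). Vps72, the subunit that holds H2A.Z in its exchange complex, measured 78.8 ± 2.64 CPM after doxorubicin and 84.8 ± 4.93 CPM in controls, a log2 fold change of -0.10 ± 0.05 (SE; edgeR adjusted p = 0.713). Asf1b, a chaperone of H3 and H4, had a log2 fold change of -0.09 ± 0.04.

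Histone variants whose names the rule did not take included Cenpa, the H3 variant of centromeres. Cenpa (ENSRNOG00000032178.6) measured 81.3, 72.2, 74.0 and 81.0 CPM in doxorubicin rats 2, 3, 6 and 8, against 66.5, 64.9, 67.8 and 61.2 CPM in control rats 1, 4, 5 and 9. Every doxorubicin rat lay above every control rat, as in 2.77% of all genes in this direction. The log2 fold change was 0.24 ± 0.05 (SE), which missed the threshold in edgeR (adjusted p = 0.101) and passed it in DESeq2 (adjusted p = 0.00363). The macroH2A genes, whose product carries a large extra domain, had log2 fold changes of 0.13 ± 0.04 for Macroh2a1 (edgeR adjusted p = 0.498) and 0.07 ± 0.05 for Macroh2a2 (edgeR adjusted p = 0.854).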

How the data were processed

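RNA came from the Arcturus PicoPure kit and libraries were polyA-enriched, per the labels' protocols. Build rn6, kallisto 0.48.0, featureCounts, fastp 0.23.2 and Trimmomatic appear in the submitters' processing notes, with no role or order. The authors deposited estimated counts per gene, not normalized; 32.5% to 33.6% of a library's values differed from whole by more than 1e-06, and all were rounded. How reads matching several genes were handled is not given in the sources used here.

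After filterByExpr and TMM scaling, genes were tested with edgeR 4.0.16 (R 4.3.3; glmQLFit with robust estimation, glmQLFTest), with no covariate and Benjamini-Hochberg adjustment over the 16976 genes kept. The common biological coefficient of variation was 8.82%. All 39 members passed this filter. Alternatives were DESeq2 1.42.0, limma-voom 3.58.1, other scalings and filters, a term for rats 1 to 4 against 5 to 9, and leaving out each library.

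Members and lists were chosen with earlier results of these data known. Named were all variant members, the 12 replication-dependent members with the highest mean CPM, the 4 of smallest p on either side, H2bc1 as testis-specific, and up to 4 genes of each of 3 lists (processing of histone messengers, histone gene transcription, chaperones); Hist1h1t (H1f6) and H2ac1 fell below the count minimum. The summed H3.3 genes, Cenpa and the macroH2A genes, and H1f1, H1f4, H1f5, H2bc18 and the 2 Hist1h3b rows, given to complete their families or counts, were chosen after values were seen; the last 6 were not followed under the alternatives. Intervals cover 95%, and p-values set the difference between groups against the spread between rats, estimated with information shared across genes. The procedure was tested on simulated data. Genome coordinates come from RefSeq GRCr8, not from the build of the counts.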

Additional observations from a re-analysis of the deposited data

Results flagged for a closer look

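In 4 of the 100 groups of 4 libraries examined among the histone rows and sums, 1 library stood far from the other 3 relative to the whole range; chance gives about 1 in 20, which is 5 of 100. In H3c13, doxorubicin rat 6 had 2.15 CPM and the other doxorubicin rats 0.956 to 1.09 CPM. In the sum of the 11 variant rows, doxorubicin rat 3 had 1318 CPM and the other doxorubicin rats 1351 to 1358 CPM. In H1f5, control rat 4 had 0.903 CPM and the other controls 0.405 to 0.455 CPM. In H4f3, control rat 4 had 2.94 CPM and the other controls 2.35 to 2.40 CPM.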

How the results depend on the processing

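No replication-dependent row and no variant row was called under any alternative run. No gene of the processing and chaperone lists was called under those run for them, which did not include the fits within rats 1 to 4 and within rats 5 to 9. The number of genes called over the whole table was 19, and 173 with DESeq2, 53 without robust estimation, 61 with the rat-number term, 0 within rats 1 to 4 and 92 within rats 5 to 9; the cause was not tested. It ran from 1 to 62 when 1 library was left out: 62 without doxorubicin rat 2, 11 without doxorubicin rat 6, 1 without doxorubicin rat 8, 11, 2, 1 and 3 without control rats 1, 4, 5 and 9. The median log2 fold change of the variant rows, -0.037, was 0.029 within rats 5 to 9, and ran from -0.041 to 0.0070 with 1 library left out, the highest without control rat 4. Splits by rat number were added after seeing the data. Of 316 other values of the 40 genes followed (the named genes of the rule with Cenpa and the macroH2A genes), none changed sign and 1 gained the threshold, Cenpa in DESeq2; its adjusted p ran from 0.00363 to 0.312 (without doxorubicin rat 8). For H3f3a the adjusted p ran from 0.442 with the rat-number term to 0.998 without doxorubicin rat 8. With 1 library left out, 24 of 320 values changed sign, in 11 genes: H1f10 ran from -0.026 to 0.026, H1f8 from -0.13 to 0.018, H2ac25 (ENSRNOG00000064520.1) from -0.035 to 0.36, H2az1 from -0.074 to 0.0082, H2az1-ps1 from -0.28 to 0.046, H3c13 from -0.44 to 0.0088, H3f3a-ps9 from -0.022 to 0.12, H4f3 from -0.18 to 0.19, Hist1h2bq from -0.094 to 0.12, Hist1h4m (ENSRNOG00000066473.1) from -0.051 to 0.094 and Hist2h4 from -0.048 to 0.12. No paired analysis was possible because the rat numbers are not shared between the groups. The SE was 0.11 to 0.52 in the replication-dependent rows, which had few counts, and 0.03 to 0.16 in the variant genes. H4f3 varied by 34.2% among doxorubicin rats and 11.3% among controls, at a counting error of 8.79%.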

Other observations

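Over the 28 replication-dependent rows, doxorubicin rats 2, 3, 6 and 8 held the lowest CPM of the 8 libraries in 9, 1, 1 and 9 rows and the highest in 2, 8, 7 and 0. Control rats 1, 4, 5 and 9 held the lowest in 3, 2, 1 and 2 rows and the highest in 1, 5, 3 and 2. No test was made, since the rows are not replicates.

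Below the count minimum, the testis-specific H2ac1 had 6, 10, 7 and 9 counts in doxorubicin rats 2, 3, 6 and 8, against 17, 11, 10 and 10 counts in control rats 1, 4, 5 and 9. In CPM the groups did not overlap, at 0.104 to 0.1804 after doxorubicin and 0.190 to 0.299 in controls, as in 1.95% of all genes in this direction. The log2 fold change was -0.59 ± 0.34 (SE; edgeR adjusted p = 0.814). H2az1-ps2 had 0, 1, 0 and 0 counts in doxorubicin rats 2, 3, 6 and 8, against 2, 2, 4 and 1 counts in control rats 1, 4, 5 and 9, and was not tested. H1f6, the testis-specific H1t, had 3, 11, 8 and 3 counts in the same doxorubicin rats, against 9, 7, 9 and 5 counts in the same control rats. Counts this low carry large counting errors, 31.6% for H2ac1 and 38.1% for H1f6 at their means.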
